A study of Mus musculus with 32 samples.

Results

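The Cyp4a genes of the mouse encode cytochrome P450 enzymes of the endoplasmic reticulum that hydroxylate fatty acids at their terminal (omega) carbon. Here 5 members were followed in the liver, Cyp4a12a, Cyp4a12b, Cyp4a14, Cyp4a10 and Cyp4a31, which were read by 9 of the 55681 probes of the array and make up 5 of the 21290 genes tested. The members were the non-control probes whose gene name on the array is 1 of these 5 symbols, and the family was chosen by a measured value, since Cyp4a12a was much lower on the methionine/choline-deficient (MCD) diet than on chow before partial hepatectomy (PH). That difference is therefore only described below and nothing is read from it. Some of the other comparisons share arrays with it, as is said beside them, and there Cyp4a12a and its near copy are described with no test.

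The omega-hydroxy fatty acids that these enzymes make are oxidised by alcohol and aldehyde dehydrogenases to dicarboxylic acids, which are then shortened in peroxisomes, a side route of fatty acid breakdown in the liver. Cyp4a10 and Cyp4a14 are classical targets of PPARalpha, the nuclear receptor that senses fatty acids in hepatocytes. Cyp4a12a and its near copy Cyp4a12b depend on androgen and on the male pattern of growth hormone, are highest in males, and make 20-HETE, a vasoactive product of arachidonic acid, whereas Cyp4a14 is higher in female than in male livers.

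Liver RNA of male C57/BL6 mice was hybridised to 32 1-colour 60-mer oligonucleotide arrays, 4 in each of 8 groups, and the labels call the 4 samples of a group biological replicates. The mice received chow (C) or MCD diet (MCD) for 3 weeks, and in a further chow group (C+Fc-GLP-1) and a further MCD diet group (M+Fc-GLP-1) these diets were combined with Fc-GLP-1, a long-acting agonist of the GLP-1 receptor, during the last 2 weeks. C and MCD mice received vehicle. One set of livers was taken at this time, before PH, and the other 2 weeks after removal of 70% of the liver. Diet and treatment were continued after PH, as the paper describes. Elsewhere the labels name the drug as an agonist that is dual, acting on the glucagon receptor too, with a dose of 4.4 mg/kg/day, and the array values do not settle which name is right. Of the source names, only that of C+Fc-GLP-1 after PH names a dual agonist, for the drug given after PH. The source name of M+Fc-GLP-1 after PH says that the same treatment went on. By these names, a change of drug cannot be told apart in any comparison that uses C+Fc-GLP-1 after PH. Samples after PH came from mice that had survived the operation, and the labels do not say whether they came from the same mice as the samples before PH. The paper describes the treated samples before PH as liver taken out at the operation. The MCD diet is a model of steatohepatitis in which the mice lose weight and do not become obese.

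All values below are log2 signals relative to the 75th percentile of the same array, so a difference of 1 is a 2-fold difference, and signals of different probes are not compared with each other. Arrays had a 75th percentile of 209.4 to 778.4 intensity units and 36.2% to 69.1% of their probes well above background. All 7 hepatocyte markers (among them albumin and transthyretin) were measured, with a summed level between 10.96 and 12.43 over the 32 arrays. Of 6 markers of kidney, the other organ rich in Cyp4a enzymes, 2 passed the filter on dim probes, with a summed level of -2.64 to -0.43. In bulk liver, fewer cells that express a gene and less RNA per cell cannot be told apart. The arrays lay on 5 slides: C and MCD before PH shared 1, the treated groups of both diets shared 1 before PH and 1 after PH, while C after PH and MCD after PH each had a slide of their own. Hence diet was compared within a slide in 3 of 4 settings, but any comparison of treated with untreated mice, of before with after PH, or of MCD with C after PH cannot be told apart from the slide. By the file headers, C after PH and MCD after PH were read on scanner 2 and all other groups on scanner 1. Treated against untreated mice after PH, and after against before PH in C and MCD, thus cannot be told apart from the scanner either. The first C array after PH stood apart. Its mean correlation with the other 3 of its group was 0.9485, below the 0.9532 it had with MCD after PH, and its macrophage markers summed to 9.44 against 7.26 to 8.40 and its cholangiocyte markers to 5.87 against 3.12 to 3.63 on the others. Member values that rest on this array are given with and without it, as are list counts that move with it by over 1.5 times.

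The 5 genes lie in 1 cluster on mouse chromosome 4, where RefSeq orders them as Cyp4a12a, Cyp4a12b, Cyp4a14, Cyp4a10 and Cyp4a31, with other Cyp4a genes and pseudogenes between and beside them. The probes are shown first because the copies are so alike that a signal can belong to more than 1 gene. Each gene is represented by the brightest of its probes, and probe positions are those of the array annotation on mm9. The 30 bases at the 5′ end of the 60-base probes of Cyp4a12a (plus strand, chr4:115005258-115005317), Cyp4a12b (plus strand, chr4:115111580-115111639), Cyp4a14 (minus strand, chr4:115158914-115158973), Cyp4a10 (chr4:115206200-115206259) and Cyp4a31 (chr4:115251553-115251612) are as follows, all near the 3′ end of the transcripts.
Cyp4a12a: atgcatatctgaaagagccaattttcaacc
Cyp4a12b: cctttcagcttacatttaagagtcttgcca
Cyp4a14: aggttgttctctgcttttgactcctgagct
Cyp4a10: acgagtttctccatcttccctcctttctgc
Cyp4a31: tattaatcctcacacaagtttctccatctt
The array annotation assigns the Cyp4a12b probe to that gene alone, but the Cyp4a12a probe to transcripts of both Cyp4a12a and Cyp4a12b.

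The brightest probes of Cyp4a10 and Cyp4a31 read nearly the same bases of their own gene. In the 30 bases below, bases 1 to 30 of the Cyp4a10 probe and 14 to 43 of the Cyp4a31 probe, the genes differ at 1 position (G3A, Cyp4a10 base first, counted from the 5′ end of the stretch), shown as a capital.
Cyp4a10: acGagtttctccatcttccctcctttctgc
Cyp4a31: acAagtttctccatcttccctcctttctgc
Over all 47 aligned bases 44 were identical (93.6%). A second pair of probes further upstream (Cyp4a10 at chr4:115198463-115198522 and Cyp4a31 at chr4:115243923-115243982) was identical at 54 of 60 positions, with the 6 differing bases in capitals.
Cyp4a10: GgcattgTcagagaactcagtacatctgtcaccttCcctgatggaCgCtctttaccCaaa
Cyp4a31: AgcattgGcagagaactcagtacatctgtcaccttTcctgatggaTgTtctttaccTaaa
The differences were G1A, T8G, C36T, C46T, C48T and C57T, counted from the 5′ end of the probe with the Cyp4a10 base first. The annotation also assigns this Cyp4a10 probe to Cyp4a32 and 1 of the 3 Cyp4a31 probes to Cyp4a10. Values of Cyp4a10 and Cyp4a31, like those of Cyp4a12a and Cyp4a12b, may thus hold signal of the other copy, and their agreement is not evidence from independent genes. All 9 probes were well above background on every array where they have a value (31 arrays for Cyp4a12b, whose spot was flagged on 1), and none was saturated.

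Cyp4a12a, the androgen-dependent 20-HETE synthase, was high on chow and low on the MCD diet. Before PH the 4 C arrays read 6.55, 6.23, 6.90 and 6.46, and the 4 MCD arrays read -0.06, 0.34, 1.04 and 0.57. This is the contrast by which the family was chosen. In the mice treated with Fc-GLP-1, the chow arrays read 3.38, 5.04, 5.40 and 4.54, and the MCD diet arrays 0.43, -0.81, 0.09 and 1.43, again with no overlap. After PH the C arrays read 0.60, 5.98, 6.56 and 5.54, so that the first lay near the MCD diet values and far from its group, and the MCD arrays read -2.78, -1.99, -0.67 and -0.81. With Fc-GLP-1 after PH, chow arrays read 3.61, 4.57, 4.28 and 4.71, and MCD diet arrays 0.36, 2.02, -0.38 and -1.46. In each of the 4 settings, every chow array except the first after PH was at least as high as 3.38 and every MCD diet array was at or below 2.02.

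Cyp4a12b, the near copy of Cyp4a12a, had the same order of diets. Before PH it read 5.71, 6.02, 6.39 and 6.39 in C and -0.04, 1.04, 1.27 and 1.16 in MCD. With Fc-GLP-1 the chow arrays read 4.28, 6.46 and 4.29, the value of the third array being left out because the scanner software had flagged the spot as an outlier, and the MCD diet arrays read 1.49, 0.22, -0.40 and 2.16. After PH the C arrays read 0.91, 5.62, 7.04 and 5.99 and the MCD arrays -1.42, -1.30, -0.36 and -0.33. The low first C array after PH was thus low in both probes. With Fc-GLP-1 after PH, chow arrays read 4.4, 5.11, 4.64 and 4.47, all above the MCD diet arrays at 0.43, 2.15, 0.05 and -0.48.

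Cyp4a14, the female-biased PPARalpha target, ran the other way. Before PH it read 6.19, 6.54, 3.87 and 4.51 in C and 7.34, 6.91, 7.29 and 7.91 in MCD. With Fc-GLP-1 it read 4.99, 5.13, 3.15 and 6.07 on chow and 9.92, 8.12, 9.38 and 9.21 on the MCD diet. Here the chow arrays spread over nearly 3 log2 units, while the MCD diet arrays were closer to each other and all higher. After PH the C arrays read 5.38, 2.88, 4.85 and 5.81 and the MCD arrays 7.04, 7.57, 8.31 and 8.28. With Fc-GLP-1 after PH, chow arrays read 1.74, 4.76, 6.87 and 5.39 and MCD diet arrays 10.25, 10.05, 9.33 and 8.01, with no overlap in any of the 4 settings.

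Cyp4a10 and Cyp4a31, the pair that shares probe sequence, showed no such split in untreated mice. Before PH, Cyp4a10 read 6.79, 6.56, 5.56 and 5.67 in C and 5.43, 5.07, 5.99 and 5.73 in MCD. With Fc-GLP-1 it read 5.10, 5.79, 4.42 and 4.96 on chow and 8.69, 6.69, 7.74 and 7.64 on the MCD diet, where the lowest MCD diet array lay above the highest chow array. After PH it read 4.71, 4.77, 6.76 and 6.39 in C, 5.99, 5.84, 6.05 and 5.97 in MCD, and the groups overlapped. Treated livers after PH read 2.68, 6.21, 7.68 and 6.47 on chow and 6.62, 7.42, 6.78 and 6.18 on the MCD diet, also with overlap. Cyp4a31 read 7.15, 7.34, 6.33 and 5.85 in C and 5.76, 4.95, 6.39 and 5.81 in MCD before PH. With Fc-GLP-1 it read 4.57, 5.59, 4.82 and 5.48 on chow and 8.17, 6.37, 8.16 and 7.62 on the MCD diet, again without overlap. After PH, Cyp4a31 lay between 2.73 and 7.63 over the 16 arrays, the lowest being the first C+Fc-GLP-1 array, which also held the lowest Cyp4a10 and Cyp4a14 values of all 32.

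**Figure D1:**
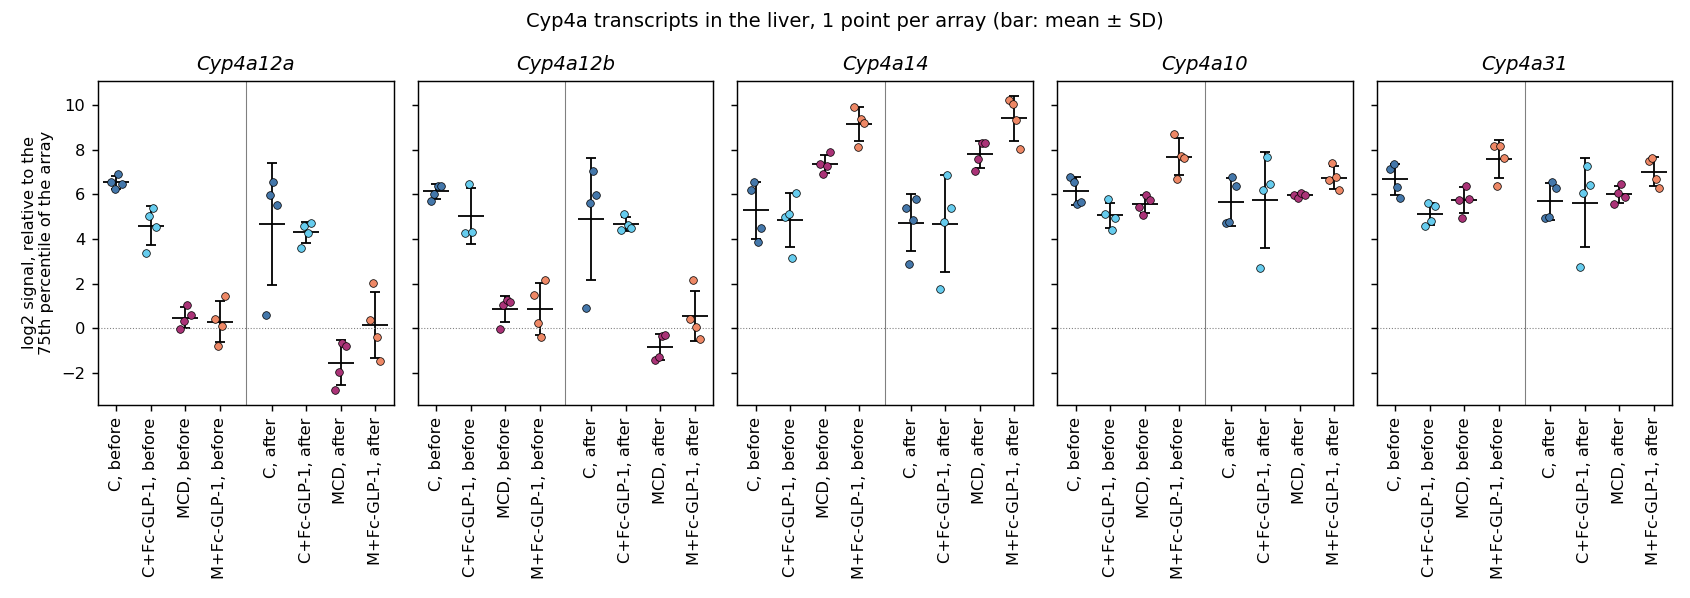
Log2 signal of each Cyp4a gene relative to the 75th percentile of its array (y axis) in the 8 groups (x axis), with 1 point per array and bars for the mean ± SD of 4 arrays (3 for Cyp4a12b in C+Fc-GLP-1 before PH). Cyp4a12a and Cyp4a12b lie high in the chow groups and low in the MCD diet groups apart from 1 C array after PH at 0.60 and 0.91, Cyp4a14 lies higher in the MCD diet groups, and Cyp4a10 and Cyp4a31 are highest in M+Fc-GLP-1 before PH.

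Ordered by group mean, Cyp4a12a was highest in C before PH (6.53 ± 0.28, SD, n = 4), followed by C after PH (4.67 ± 2.74, or 6.03 without its first array), C+Fc-GLP-1 before PH (4.59 ± 0.88) and C+Fc-GLP-1 after PH (4.29 ± 0.49). Below these came MCD before PH (0.47 ± 0.46), M+Fc-GLP-1 before PH (0.28 ± 0.92), M+Fc-GLP-1 after PH (0.14 ± 1.46) and MCD after PH (-1.56 ± 1.01). The 4 chow groups took the first 4 ranks, and the ranges of neighbours in this order overlapped everywhere except between the last chow group and the first MCD diet group. The order of Cyp4a12b broke at the same place, between C+Fc-GLP-1 after PH (4.66 ± 0.32) and M+Fc-GLP-1 before PH (0.87 ± 1.16). Cyp4a14 broke between MCD before PH (7.36 ± 0.41) and C before PH (5.28 ± 1.29), with M+Fc-GLP-1 after PH (9.41 ± 1.01) and before PH (9.16 ± 0.76) at the top. These orders include C and MCD before PH, the groups of the contrast that chose the family, so the breaks are descriptions only. For Cyp4a10 and Cyp4a31 all neighbours overlapped. Both were highest in M+Fc-GLP-1 before PH (7.69 ± 0.82 and 7.58 ± 0.85) and lowest in C+Fc-GLP-1 before PH (5.07 ± 0.56 and 5.11 ± 0.50).

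Under Fc-GLP-1 before PH, a comparison of M+Fc-GLP-1 with C+Fc-GLP-1 that shares no array with the choosing contrast and lies within 1 slide, all 5 genes differed between the diets. Cyp4a12a and Cyp4a12b fell on the MCD diet and Cyp4a14, Cyp4a10 and Cyp4a31 rose, and in all 5 the diets did not overlap. In limma's fit to all 8 groups, 5 of 5 members passed an adjusted p of 0.05, where 10.4% of all 21290 genes did, and 15.5% of all genes did not overlap. The difference was -4.30 for Cyp4a12a (SE 0.83, 95% confidence interval -5.99 to -2.61, adjusted p = 0.000822), that is 19.8-fold lower on the MCD diet. For Cyp4a12b it was -4.14 (SE 0.88, interval -5.95 to -2.34, adjusted p = 0.00237), from 3 chow arrays. Cyp4a14 rose by 4.32 (SE 0.79, interval 2.71 to 5.93, adjusted p = 0.000458), a 20-fold difference opposite in sign to that of the male-biased pair. The PPARalpha target Cyp4a10 rose by 2.62 (SE 0.64, interval 1.32 to 3.93, adjusted p = 0.00747) and its neighbour Cyp4a31 by 2.47 (SE 0.62, interval 1.20 to 3.73, adjusted p = 0.00916). The other probes of these genes gave 2.71 (adjusted p = 0.00427) and 2.22 (adjusted p = 0.021) for Cyp4a10 and 1.95 (adjusted p = 0.04) and 1.84 (adjusted p = 0.0771) for Cyp4a31, so that 1 of the 3 Cyp4a31 probes missed the threshold.

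A fit of the 8 arrays of this slide alone also called all 5 genes, with adjusted p between 0.00166 for Cyp4a12a and 0.0106 for Cyp4a12b. The summed hepatocyte markers were 11.48 to 12.16 in M+Fc-GLP-1 and 11.59 to 12.21 in C+Fc-GLP-1. The 12 macrophage markers summed to 5.79 to 7.06 and 6.53 to 7.40, and the 6 measured of 7 T and NK cell markers to 4.54 to 5.85 and 5.34 to 5.95. These ranges overlapped, whereas the 5 B cell markers summed to -0.5 to 0.72 in M+Fc-GLP-1 and to 0.98 to 1.5 in C+Fc-GLP-1, without overlap, and the part of cell composition in the Cyp4a differences was not tested.

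After PH without treatment, MCD against C, Cyp4a12a and Cyp4a12b fell on the MCD diet and Cyp4a14 rose, whereas Cyp4a10 and Cyp4a31 did not pass the test. The differences were -6.23 for Cyp4a12a (SE 0.83, interval -7.92 to -4.54, adjusted p = 6.52e-06), -5.74 for Cyp4a12b (SE 0.81, interval -7.41 to -4.07, adjusted p = 2.07e-05) and 3.07 for Cyp4a14 (SE 0.79, interval 1.46 to 4.68, adjusted p = 0.0101). Thus 3 of 5 members were called, where 12.2% of all genes were, and the diets did not overlap for these 3, as for 17.2% of all genes. Cyp4a10 differed by 0.31 (interval -1 to 1.61, adjusted p = 0.817) and Cyp4a31 by 0.32 (interval -0.94 to 1.59, adjusted p = 0.80). Without the first C array the differences were -7.59 for Cyp4a12a, -7.07 for Cyp4a12b, 3.28 for Cyp4a14, -0.01 for Cyp4a10 and 0.06 for Cyp4a31. The Cyp4a14 call was past the threshold in 17 of 18 alternatives and was lost without 1 array: without the second C array its difference was 2.45 and its adjusted p 0.0594. The 8 neutrophil markers summed to 7.1 to 8.34 in MCD and 6.62 to 6.87 in C, and the 6 cholangiocyte markers to 2.2 to 2.78 and 3.12 to 5.87, both without overlap, and their part in the differences was not tested. These 2 groups lay on different slides, so diet and slide cannot be told apart here.

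After PH under Fc-GLP-1, again within 1 slide, the same 3 genes were called in the same directions. The source names differ in the drug given after PH on chow and on the MCD diet. Diet and drug thus cannot be told apart here or in the diet by time interaction, if these names are right. Cyp4a12a fell by 4.15 on the MCD diet (SE 0.83, interval -5.84 to -2.46, adjusted p = 0.000929) and Cyp4a12b by 4.12 (SE 0.81, interval -5.79 to -2.45, adjusted p = 0.000934), while Cyp4a14 rose by 4.72 (SE 0.79, interval 3.11 to 6.33, adjusted p = 0.000124). That made 3 of 5 members beside 12.8% of all genes, and the same 3 did not overlap, as was the case for 16.6% of all genes. Cyp4a10 differed by 0.99 (interval -0.32 to 2.30, adjusted p = 0.36) and Cyp4a31 by 1.40 (interval 0.13 to 2.66, adjusted p = 0.146). The first C+Fc-GLP-1 array, low in Cyp4a10, Cyp4a14 and Cyp4a31, had cholangiocyte markers at 6.26 against 3.35 to 4.23 on the other 3 and macrophage markers at 8.75 against 7.78 to 8.14. Without it the differences were 3.74 for Cyp4a14 (adjusted p = 0.000703), -0.04 for Cyp4a10 and 0.43 for Cyp4a31. Without the third C+Fc-GLP-1 array, where Cyp4a10 and Cyp4a31 were highest, the Cyp4a31 difference was 1.95 and its adjusted p 0.0435. The diet by time interaction under Fc-GLP-1 was -1.64 for Cyp4a10 (interval -3.49 to 0.21, adjusted p = 0.572) and -1.07 for Cyp4a31 (interval -2.86 to 0.72, adjusted p = 0.729). Without the first C+Fc-GLP-1 array after PH these were -2.66 (adjusted p = 0.117) and -2.04 (adjusted p = 0.266). With all arrays it was 0.40 for Cyp4a14, 0.15 for Cyp4a12a and 0.03 for Cyp4a12b, so no member was shown to differ between the times in its response to diet, and 0.0939% of all genes were called in this interaction.

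For description, MCD minus C before PH was -6.06 for Cyp4a12a, -5.27 for Cyp4a12b, 2.08 for Cyp4a14, -0.59 for Cyp4a10 and -0.94 for Cyp4a31. In this choosing contrast 3 of 5 members passed the threshold beside 26.3% of all genes and did not overlap between the diets beside 28.3%, Cyp4a14 past it in 8 of 18 alternatives, and nothing is read from that count.

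**Figure D2:**
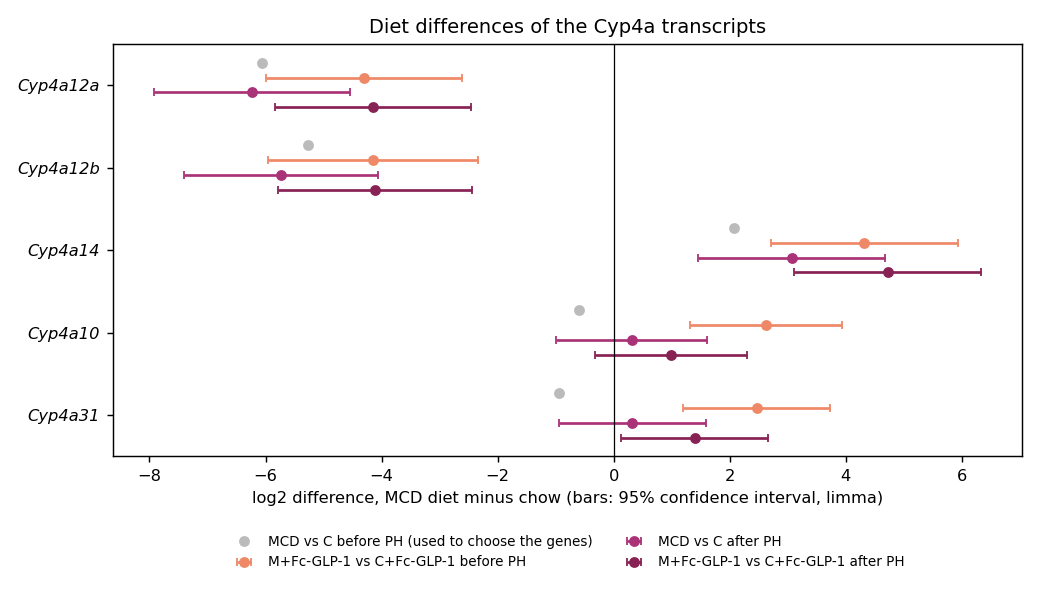
Log2 difference, MCD diet minus chow (x axis), of each Cyp4a gene (y axis) in the 4 settings, with limma's 95% confidence interval as bars and the choosing contrast in grey, without bars. Cyp4a12a lies between -6.23 and -4.15 and Cyp4a14 between 2.08 and 4.72, while the intervals of Cyp4a10 and Cyp4a31 lie wholly above 0 only under Fc-GLP-1 before PH (2.62 and 2.47), and for Cyp4a31 also under Fc-GLP-1 after PH, from 0.13, where its adjusted p is 0.146.

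The response to Fc-GLP-1 differed between the diets for the PPARalpha target Cyp4a10 and for Cyp4a31 before PH. These comparisons use the C and MCD arrays by which the family was chosen, and treated and untreated mice lay on different slides, so that an effect of the slide on each single treatment difference cannot be told apart, whereas a shift common to all arrays of a slide cancels in the interaction. A technical difference between groups of the same slide does not cancel. The 75th percentile before PH was 442.4 to 563.6 in MCD but 209.4 to 395.2 in C. It was 268.1 to 337.6 in M+Fc-GLP-1 and 221.7 to 254.5 in C+Fc-GLP-1. On the MCD diet Cyp4a10 rose with treatment by 2.14 (SE 0.64, interval 0.83 to 3.44, adjusted p = 0.0406), a 4.39-fold difference, and its other probes gave 2.00 (adjusted p = 0.0471) and 2.35 (adjusted p = 0.0244). On the MCD diet 1 of 5 members was called beside 7.21% of all genes, and this call was past the threshold in 10 of 18 alternatives, among them 1 of 8 fits with 1 array left out (adjusted p up to 0.126). Cyp4a31 differed by 1.85 (interval 0.59 to 3.12, adjusted p = 0.0627) and Cyp4a14 by 1.80 (interval 0.19 to 3.41, adjusted p = 0.159). For the male-biased pair the differences were -0.19 for Cyp4a12a and 0.01 for Cyp4a12b, and treated and untreated arrays overlapped for both.

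On chow no member was called, beside 2.08% of all genes. Treated minus untreated was -1.08 for Cyp4a10 (interval -2.39 to 0.23), -1.55 for Cyp4a31 (interval -2.82 to -0.29, unadjusted p = 0.0177 by limma, adjusted p = 0.169), -0.44 for Cyp4a14 (interval -2.05 to 1.17), -1.12 for Cyp4a12b and -1.95 for Cyp4a12a. The last value uses the C arrays whose high Cyp4a12a chose the family and is a description only. The treated and untreated chow arrays did not overlap for 2 of 5 members, Cyp4a12a and Cyp4a31, beside 9.97% of all genes. The T and NK cell markers summed to 5.34 to 5.95 in treated and 6.13 to 7.22 in untreated chow mice, without overlap. The same held for the 2 measured kidney markers (-2.59 to -1.34 and -1.11 to -0.79) and the 1 measured of 4 adipocyte markers (-5.32 to -3.69 and -1.88 to 0.53), and their part was not tested.

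The interaction, the treatment difference on the MCD diet minus that on chow, was 3.21 for Cyp4a10 (SE 0.90, interval 1.36 to 5.07, adjusted p = 0.0346) and 3.41 for Cyp4a31 (SE 0.87, interval 1.62 to 5.20, adjusted p = 0.0225). So 2 of 5 members were called beside 6.13% of all genes. The other Cyp4a10 probes gave 3.19 (adjusted p = 0.0301) and 3.04 (adjusted p = 0.0406), and the other Cyp4a31 probes 3.02 (adjusted p = 0.0545) and 2.65 (adjusted p = 0.0656). Cyp4a32, the next copy in the cluster, which shares a probe assignment with Cyp4a10, had an interaction of 3.78 (SE 0.95, adjusted p = 0.0203). For Cyp4a14 it was 2.24 (interval -0.04 to 4.52, adjusted p = 0.219), and the male-biased pair, described only, had 1.76 for Cyp4a12a and 1.13 for Cyp4a12b. The adjusted p of Cyp4a10 lay between 0.00642 and 0.0695 over 26 other ways of processing or leaving out arrays and was past the threshold in 14 of them, while Cyp4a31 was past it in 24 of 26.

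After PH no member was called for treatment on either diet, beside 2.05% of all genes on chow and 6.45% on the MCD diet. Treated and untreated arrays differed in slide and scanner here. On chow the differences were 0.11 for Cyp4a10, -0.38 for Cyp4a12a, -0.23 for Cyp4a12b, -0.04 for Cyp4a14 and -0.06 for Cyp4a31, and the intervals reached at least 1.20 log2 units to either side. Without the first C array they were -1.74 for Cyp4a12a (adjusted p = 0.144) and -1.56 for Cyp4a12b (adjusted p = 0.192), and without the first C+Fc-GLP-1 array 1.13 for Cyp4a10 (adjusted p = 0.253), 0.94 for Cyp4a14 and 0.91 for Cyp4a31. On the MCD diet all 5 were above 0, with 1.70 for Cyp4a12a (interval 0.01 to 3.39, unadjusted p = 0.049 by limma, adjusted p = 0.224), 1.61 for Cyp4a14 (interval 0.00 to 3.22, unadjusted p = 0.0499, adjusted p = 0.225), 1.39 for Cyp4a12b, 1.02 for Cyp4a31 and 0.79 for Cyp4a10. There the neutrophil markers summed to 6.16 to 6.97 in treated and 7.1 to 8.34 in untreated mice, without overlap. The B cell and cholangiocyte markers did not overlap either, and their part was not tested.

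**Figure D3:**
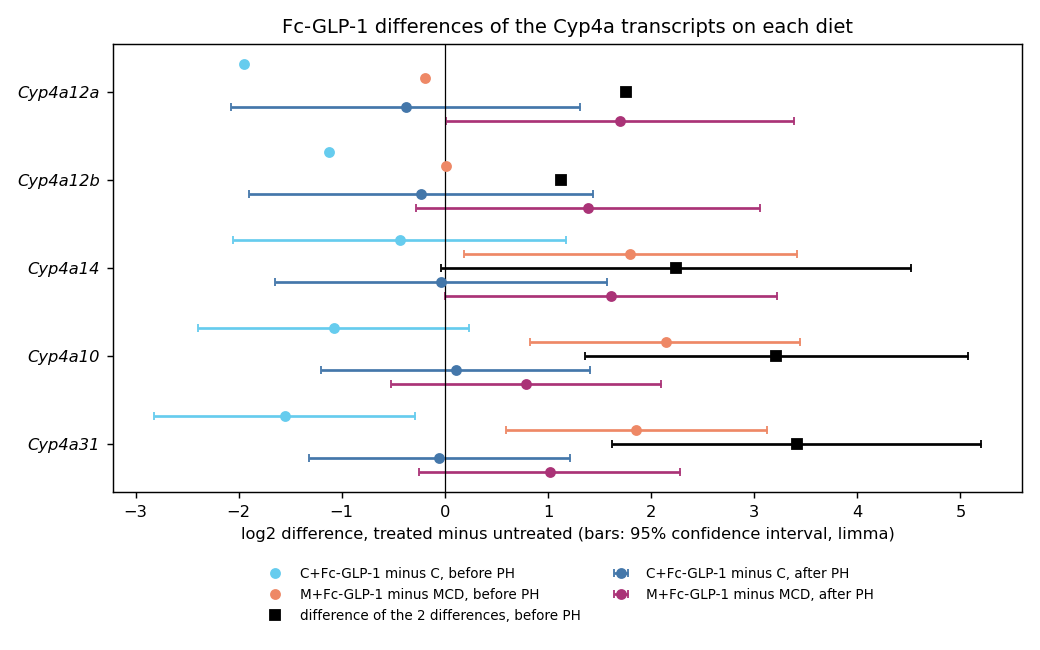
Log2 difference, treated minus untreated with Fc-GLP-1 (x axis), of each Cyp4a gene (y axis) on chow and on the MCD diet before and after PH, and the difference between the diets before PH (black squares), with limma's 95% confidence interval as bars, left out for Cyp4a12a and Cyp4a12b before PH. The black squares of Cyp4a10 (3.21) and Cyp4a31 (3.41) lie to the right of 0 with their whole interval, and that of Cyp4a14 has an interval that reaches 0.

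Livers 2 weeks after PH were also set against those before PH within each diet and treatment, on different slides throughout. In C and MCD the scanner differed too. No member was called in any of the 4 groups, where 13.8% of all genes were called in C and 9.33% in MCD, and 0.831% on chow and 1.71% on the MCD diet under treatment. The comparisons in C and MCD reuse the arrays before PH that chose the family, so the male-biased pair is only described there. In MCD mice Cyp4a12a differed by -2.03 and Cyp4a12b by -1.71, and for these 2 of 5 members the arrays before and after PH did not overlap, beside 19.2% of all genes. The neutrophil markers in MCD summed to 7.1 to 8.34 after and 6.28 to 7 before PH, without overlap. The T and NK cell, cholangiocyte and stellate cell markers did not overlap either. In the other groups the macrophage markers did not overlap between the times, and the part of these cells was not tested. In C mice Cyp4a12a differed by -1.86, but by -0.51 without the first C array after PH, and Cyp4a12b by -1.24, or 0.09 without it. Cyp4a14 differed by -0.55 in C and 0.44 in MCD, and under treatment by -0.15 on chow and 0.25 on the MCD diet. Cyp4a10 and Cyp4a31 differed by -0.94 and -0.56 in M+Fc-GLP-1, the group where they had been highest before PH, with intervals of -2.25 to 0.37 and -1.82 to 0.71.

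The members also varied together between arrays of 1 group. After the group mean was taken away from each array, Cyp4a10 and Cyp4a31 correlated at r = 0.935 (Spearman's rho 0.869) over 32 arrays, and at 0.845 without the first C and the first C+Fc-GLP-1 array after PH. Cyp4a12a and Cyp4a12b correlated at 0.917 (rho 0.889, 31 arrays), and at 0.804 without these arrays. Both pairs share probe sequence or transcript assignment, as shown above. Cyp4a14, whose probe is assigned to no other gene of the family, correlated with Cyp4a31 at 0.816 and with Cyp4a10 at 0.798, but with Cyp4a12a at 0.08 and with Cyp4a12b at 0.027. Between the other pairs of genes, Cyp4a10 correlated with Cyp4a12a at 0.378 and with Cyp4a12b at 0.38, and Cyp4a31 with them at 0.434 and 0.322. The arrays of a group share diet, treatment and slide, and these correlations are descriptions.

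**Figure D4:**
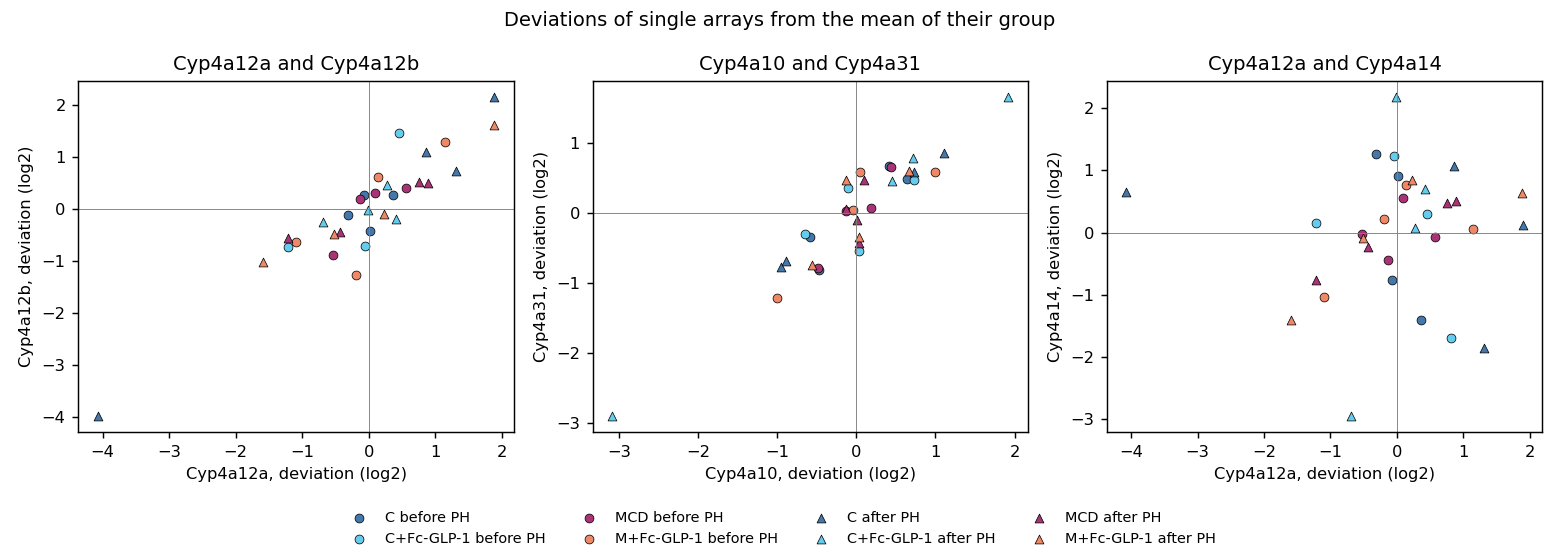
Deviation of each array from the mean of its group (log2) for Cyp4a12a against Cyp4a12b (31 arrays), Cyp4a10 against Cyp4a31 (32 arrays) and Cyp4a12a against Cyp4a14 (32 arrays), with colours for diet and treatment, circles before PH and triangles after PH. The first 2 pairs follow a line (r = 0.917 and 0.935) with the first C and the first C+Fc-GLP-1 array after PH at its lower ends, and the last pair does not (r = 0.08).

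The genes whose log2 signals were most like those of Cyp4a12a over the 32 arrays were Elovl3 (r = 0.952), a male-biased fatty acid elongase, Ybx2 (0.95), Aifm3 (0.948), Susd4 (0.942) and Lrit2 (0.935), and for Cyp4a12b they were the same 5, led by Elovl3 at 0.955. For Cyp4a14 the most alike was Acot3 (0.921), a peroxisomal acyl-CoA thioesterase, and Acot4 (0.895) was also among the first 5. Cyp4a10 was most like Cyp4a32 (0.791), Eci2 (0.785), Mgll (0.751) and Acadl (0.74), and Cyp4a31 was most like Cyp4a32 (0.843), Eci2 (0.786) and Pex11a (0.76). Eci2 and Acadl take part in fatty acid oxidation, Mgll is the monoacylglycerol lipase, and Pex11a is needed for peroxisome division. These values follow the same differences between the groups as the members themselves. They include the C and MCD arrays before PH that chose the family, and are descriptions only. After the group means were taken away, the most alike were Elovl3 for Cyp4a12a (0.864), Ak4 for Cyp4a14 (0.797), and Cyp4a32 for Cyp4a10 (0.847) and Cyp4a31 (0.879). For Cyp4a12b an unnamed transcript led at 0.91, followed by Susd4 (0.881).

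The genes around the Cyp4a enzymes were counted in the 3 diet comparisons that did not choose the family, in the order M+Fc-GLP-1 against C+Fc-GLP-1 before PH, MCD against C after PH, and M+Fc-GLP-1 against C+Fc-GLP-1 after PH, where the median difference of all genes was 0.04, -0.03 and -0.01 and 10.4%, 12.2% and 12.8% of all genes were called. Of 12 other fatty acid hydroxylase P450 genes measured, 0 rose and 3 fell in the first, 0 and 4 in the second, and 2 and 2 in the last, with medians of -0.34, -0.56 and -0.20. All calls but 1, a rise of Cyp2u1 in the last comparison, were of Cyp4f genes, which act on leukotrienes and long fatty acids. Cyp4f14, the leukotriene hydroxylase of the liver, fell by 1.90 (adjusted p = 0.00303) in the first comparison and by 2.75 (adjusted p = 3.77e-05) in the last. None of these 12 relatives rose under Fc-GLP-1 before PH, where Cyp4a14, Cyp4a10 and Cyp4a31 did, and Cyp4a32, a Cyp4a gene in this list, differed by 1.84 (adjusted p = 0.0757). These counts moved with single arrays: in the first comparison 1 rose and 5 fell without the fourth C+Fc-GLP-1 array, in the second 2 fell without the second, the third or the fourth C or the second or the fourth MCD array, and in the last 1 rose and 1 fell without the second C+Fc-GLP-1 array, and 1 and 2 fell without the first and second M+Fc-GLP-1 arrays.

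Por, the reductase that passes electrons to every microsomal P450, rose in all 3 comparisons, by 2.51 (adjusted p = 2.65e-07), 1.47 (adjusted p = 0.000471) and 2.40 (adjusted p = 4.84e-07), and of the 3 other electron donors measured none rose, while 0, 1 and 2 fell. In the last Cyb5r3 fell by 1.36 (adjusted p = 0.00265) and Cyb5b fell by 1.34 (adjusted p = 0.0238). Of 10 dehydrogenases for omega-alcohols and omega-aldehydes, 2 rose in the first comparison, 1 in the second and 1 in the last, where 1 also fell. In the last only the fall was called without the first or the fourth C+Fc-GLP-1 or the first or the second M+Fc-GLP-1 array. Among them Aldh3a2, the fatty aldehyde dehydrogenase, rose by 1.07 (adjusted p = 0.019) under Fc-GLP-1 before PH. Of 29 genes of peroxisomal oxidation, 8 rose and 2 fell, 4 rose and 1 fell, and 6 rose and 1 fell, with medians of 0.33, -0.20 and 0.21, so most of this list did not pass the test. In the second comparison 4 rose and 4 fell without the first C array after PH, and 3 rose and 0 fell without the second. Acot3 rose by 6.0 (adjusted p = 8.35e-07), 3.48 (adjusted p = 0.00121) and 4.87 (adjusted p = 1.64e-05), and Acot5, a related thioesterase, rose under Fc-GLP-1 by 3.42 before PH and by 2.61 after PH. Nudt7, a peroxisomal coenzyme A hydrolase, fell by 2.38 before PH and fell by 2.0 after PH.

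Of the calls among PPARalpha, its partners and its other targets, most were upward, with 15 of 32 genes higher and 2 lower, 12 and 1, and 14 and 1, and medians of 0.98, 0.65 and 0.73. Fgf21, the fasting hormone of the liver, rose by 3.23, 7.06 and 4.51, and Cidec, a lipid droplet protein, by 6.0, 5.53 and 6.07. Lipc, the hepatic lipase, differed by -1.42, -2.43 and -1.96 and fell in all 3. Cyp4a10, itself a classical member of this group of targets, passed the test in the first of the 3 comparisons only.

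Of 27 male-biased genes, 0 rose and 15 fell, 0 and 10, and 1 and 15, with medians of -1.86, -1.30 and -2.0, and without the first C array after PH 18 fell in the second comparison, and 6 without the second or the third. Of 21 female-biased genes, 16 rose and 1 fell, 15 and 1, and 14 and 1, with medians of 3.83, 2.41 and 2.46. Hsd3b5, a male-specific steroid dehydrogenase, fell by 4.15 (adjusted p = 0.0213) in the first comparison and by 7.77 (adjusted p = 3.83e-05) in the last. Sult1e1, the oestrogen sulfotransferase, rose by 7.47, 7.11 and 8.35. On C+Fc-GLP-1 arrays before PH, Sult1e1 was well above background on 2 of 4, so its difference against chow rests on dim signals there. Some genes stand in more than 1 list, Acot3 and Abcd2 among them.

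Of 17 genes of the growth hormone, androgen and STAT5 axis, 2 rose and 2 fell in the first comparison, 2 and 2 in the second, and 1 and 4 in the last. Without the first C array after PH the second had 2 and 5, and without the second or the third C or the second MCD array 1 and 1, as the first had without the second or the third C+Fc-GLP-1 or the third M+Fc-GLP-1 array. Cux2, a female-biased repressor of male-biased genes, rose in all 3, by 5.29 (adjusted p = 1.05e-08), 1.76 (adjusted p = 0.0126) and 4.23 (adjusted p = 4.49e-07). Stat5b, which carries the male growth hormone signal, fell by 0.96 (adjusted p = 0.0023) in the first, and Bcl6, a male-biased repressor, by 3.65 (adjusted p = 0.000383) in the last. Of 12 other genes that make or handle 20-HETE and related eicosanoids, none rose and 1, 6 and 3 fell, the 6 being 2 or 3 without the second or the third C or the first or the second MCD array. The epoxygenase Cyp2j5 was among those that fell in the last comparison, by 1.90.

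**Figure D5:**
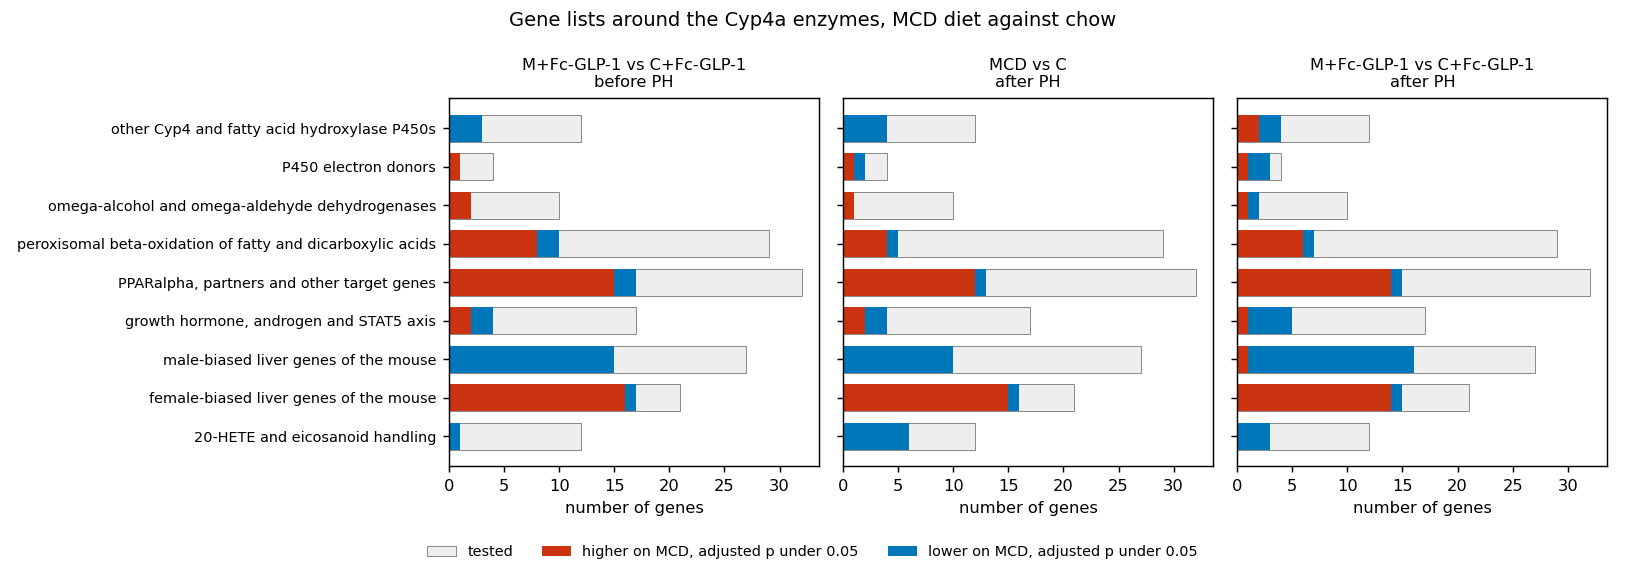
Number of genes measured (grey), higher (red) and lower (blue) on the MCD diet at an adjusted p under 0.05 in 9 lists of genes around the Cyp4a enzymes (rows), for the 3 diet comparisons that did not choose the family (panels). The male-biased list holds mostly blue calls (15, 10 and 15 of 27) and the female-biased and PPARalpha lists mostly red ones (16, 15 and 14 of 21, and 15, 12 and 14 of 32).

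Treatment with Fc-GLP-1 on the MCD diet before PH, the comparison in which Cyp4a10 rose, was accompanied by 7 higher and 1 lower of the 32 PPARalpha genes (median 0.62, against 0.10 for all genes) and by 5 higher and 0 lower of the 29 peroxisomal genes (median 0.63), where 7.21% of all genes were called. Without the first MCD array 2 and 1 PPARalpha genes and 2 and 0 peroxisomal genes were left. Leaving out the third MCD, the first M+Fc-GLP-1 or the third M+Fc-GLP-1 array left 3 to 5 PPARalpha genes, and leaving out the second MCD, the first M+Fc-GLP-1 or the third M+Fc-GLP-1 array left 2 peroxisomal genes. Acot1, a fatty acyl thioesterase induced through PPARalpha, rose by 2.29 (adjusted p = 0.0124), Mgll by 2.04 (adjusted p = 0.0136) and Ppargc1a, the coactivator of PPARalpha, by 1.68 (adjusted p = 0.0073), while Cd36, a fatty acid transporter, fell by 1.56 (adjusted p = 0.0186). In the interaction, 4 of 32 PPARalpha genes and 6 of 29 peroxisomal genes were called, all upward, beside 6.13% of all genes, and without the first MCD array 2 and 3. Leaving out the first C, the third C+Fc-GLP-1 or the first M+Fc-GLP-1 array also left 2 PPARalpha genes. Among those called were Acaa1b, a peroxisomal thiolase, with 2.78 (adjusted p = 0.0039) and Pex11a with 1.99 (adjusted p = 0.00683), beside Cyp4a10 and Cyp4a31 at 3.21 and 3.41. The macrophage markers summed to 7.20 to 8.66 in MCD and to 5.79 to 7.06 in M+Fc-GLP-1 before PH, without overlap, and to 6.13 to 6.96 in C and 6.53 to 7.40 in C+Fc-GLP-1, and their part in these differences was not tested. The B cell markers at 1.89 to 3.36 in MCD and -0.5 to 0.72 in M+Fc-GLP-1 and the T and NK cell markers at 4.05 to 4.35 and 4.54 to 5.85 did not overlap either, and their part was not tested. The hepatocyte markers summed to 11.35 to 11.52 in MCD and 11.48 to 12.16 in M+Fc-GLP-1.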

How the data were processed

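Liver RNA of 32 samples, 4 in each of 8 groups, was read on Agilent 1-colour arrays of 62976 spots, and groups follow the labels. The authors deposited the intensity of each spot as given by Agilent Feature Extraction 10.7.3.1, background-subtracted and detrended per the file headers, and a table of normalized log2 values made with limma, which the authors' processing notes name and which served as an alternative here. The 5 genes and all gene lists were chosen with earlier results of these data known.

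Values are log2 of the processed signal minus log2 of its 75th percentile over the array's 59305 spots that are not controls. Outlier spots flagged by the software were left out, spots of a probe were averaged, and symbols were updated through RefSeq accessions for 27656 of 55681 probes. The filter on dim probes required a signal well above background throughout 1 or more groups, which 29302 probes met, and a gene (21290 in all) was read by its brightest such probe. All 9 Cyp4a probes passed. The members have no entry among the RefSeq promoter sequences used here. One linear model over the 8 groups was fitted with limma 3.58.1 (R 4.3.3), p-values were adjusted by Benjamini-Hochberg over all 21290 genes with a threshold of 0.05, and the fit was tested on simulated data. A gene whose probe was not well above background on any array of a group has only a bound there. List genes named are among the calls with the largest differences in each list and comparison, and 1 such gene is not reported here. Alternatives were normexp (offset 50) with quantile normalization, median centring, centring on the probes above background on all arrays and every probe as a feature (both chosen after seeing the data), the deposited log2 values, the average of all probes of a gene, no filter on dim probes, only the groups compared, limma with a robust mean-variance trend, a replicate block, and each array left out. The precision is limited by the number of arrays. The p-values rest on 1 spread per gene, pooled within groups over all 8 groups and drawn by limma towards that of all genes. A group with a wide spread thus also widens comparisons that do not use it. For Cyp4a12a the SD was 2.74 in C after PH and 0.28 in C before PH.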

Additional observations from a re-analysis of the deposited data

Results flagged for a closer look

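The response to Fc-GLP-1 before PH differed between the diets for 2 members by the interaction test. Treated minus untreated was 2.14 on the MCD diet and -1.08 on chow for Cyp4a10, an interaction of 3.21 (adjusted p = 0.0346 by limma), and 1.85 and -1.55 for Cyp4a31, an interaction of 3.41 (adjusted p = 0.0225 by limma). The probes of both genes share sequence, so these are not independent. Among 39 groups of 4 values of the members, no array passed Dixon's criterion at its 95% critical value. With only 4 values a group, this does not show that no array stood apart. The first C array after PH did not pass it either, although it read 0.6 for Cyp4a12a against 5.54 to 6.56 on the others of its group.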

How the results depend on the processing

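Under Fc-GLP-1 before PH all 5 members passed the threshold in 18 of 18 alternatives each. Counts of members called stayed at 0 or above 0 as in the main fit, and within 1.5 times of it, in 242 of 268 alternatives. For M+Fc-GLP-1 against MCD before PH the count of 1 became 0 with median centring, 2 without the filter on dim probes, 2 with the mean over a gene's probes and 3 with only the groups compared. For MCD after against before PH it was 2 instead of 0 with only the groups compared, Cyp4a12a and Cyp4a12b, which use the MCD arrays that chose the family. The diet by treatment interaction before PH had 2 members called, but 0 with normexp and quantile normalization, 0 with the authors' normalized values, 1 with median centring and 1 without the filter, with an adjusted p of 0.0506 to 0.0531 for Cyp4a10. The adjusted p of Cyp4a31 in this interaction was 0.079 with normexp and quantile normalization and 0.0851 with the authors' values, the only 2 alternatives where it missed the threshold. Leaving out 1 array gave 0 to 2 for M+Fc-GLP-1 against MCD before PH, 1 to 2 for this interaction, 2 to 3 for MCD against C after PH, 3 to 4 for M+Fc-GLP-1 against C+Fc-GLP-1 after PH, and 0 to 1 for C after against before PH, the 1 being Cyp4a12a at -2.49 without the third C array after PH, a comparison with the C arrays that chose it. The cause was not tested.

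Among single members, 63 of 1340 alternative values had the other sign, none past the threshold either way. With normexp, the authors' values and, where given, centring on probes well above background everywhere (chosen after seeing the data), Cyp4a10 in C+Fc-GLP-1 against C after PH was -0.17, -0.16 and -0.02. Cyp4a14 after against before PH was 0.21 and 0.16 in C and 0.23 and 0.15 in C+Fc-GLP-1 with the first 2 of these. The diet by time interaction was -0.11 and -0.08 for Cyp4a12a and -0.10 and -0.07 for Cyp4a12b. Cyp4a12b in M+Fc-GLP-1 against MCD before PH was -0.31 with median centring and -0.04 with the added centring, and Cyp4a31 in C+Fc-GLP-1 against C after PH was 0.21 as a mean over its probes.

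With 1 array left out, C+Fc-GLP-1 against C after PH ran from -0.54 to 1.13 for Cyp4a10, -1.74 to 0.25 for Cyp4a12a, -1.56 to 0.48 for Cyp4a12b, -0.77 to 0.94 for Cyp4a14 and -0.61 to 0.91 for Cyp4a31, and before PH from -0.91 to 0.12 for Cyp4a14. After against before PH ran in C from -1.96 to 0.09 for Cyp4a12b and -1.01 to 0.07 for Cyp4a14, in C+Fc-GLP-1 from -0.72 to 0.37 for Cyp4a12b, -0.87 to 0.84 for Cyp4a14 and -0.04 to 1.48 for Cyp4a31, and in M+Fc-GLP-1 from -0.78 to 0.38 for Cyp4a12a, -0.87 to 0.10 for Cyp4a12b and -0.09 to 0.72 for Cyp4a14. M+Fc-GLP-1 against MCD before PH ran from -0.57 to 0.18 for Cyp4a12a and -0.42 to 0.43 for Cyp4a12b, and the diet by time interaction from -0.48 to 0.68, -0.70 to 0.46 and -0.59 to 1.13 for Cyp4a12a, Cyp4a12b and Cyp4a14. For Cyp4a10, M+Fc-GLP-1 against C+Fc-GLP-1 after PH ran from -0.04 to 1.63 and MCD against C after PH from -0.01 to 0.67.

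Samples of the same replicate number did not deviate together (mean correlation 0.0173 over 112 pairs, against -0.0053 for 336 pairs of different number), so the numbers do not pair the samples. A fit with the replicate block, which joins equal numbers over all groups, called 2 members instead of 3 in MCD against C before PH and changed no other count. Median centring shifted the median of all genes by -0.62 in the interaction before PH and by -0.32 to 0.37 in the other comparisons. With 4 arrays a group, differences well above 1 log2 unit could go uncalled for these genes. In M+Fc-GLP-1 against MCD before PH, 1.85 for Cyp4a31 (adjusted p = 0.0627 by limma) and 1.80 for Cyp4a14 (adjusted p = 0.159 by limma) did not pass. A member that was not called is thus not shown to be unchanged.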
